A study of Mus musculus with 2 samples.

Results

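The genes described here are the colony-stimulating factors and monocyte chemokines that recruit and maintain myeloid cells, with their receptors. They are the 6 ligands Csf1, Il34, Csf2, Csf3, Ccl2 and Ccl7 and the 3 receptors Csf1r, Csf3r and Ccr2. Members were chosen by symbol from the feature list, and all 9 were among its 19059 genes. The series profiled KPC orthotopic tumors, that is, tumors placed in the mouse pancreas, KPC being the name of a widely used mouse model of pancreatic cancer. A sample from tumors treated with 10 mg/kg EIPA, an amiloride derivative used to block sodium-proton exchange and macropinocytosis, was set against a sample from tumors treated with DMSO, its vehicle. Each sample pooled 4 flash-frozen tumors, so single mice cannot be told apart, and the labels used here give no strain, sex, age or length of treatment. The libraries were made with the single-plex Chromium fixed RNA kit, in which probe pairs are ligated on each transcript and counted with unique molecular identifiers (UMIs).

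Cells of both libraries were deposited in 1 matrix and carry the barcode suffix 2 or 1. No label used here ties a suffix to EIPA or DMSO, so values are given for library 2 and library 1 and no direction of a drug effect is drawn. There was 1 library of each kind and cells are not replicates. No p-value or standard error was therefore computed, and all intervals are 95% intervals that cover counting error only. A gene was called past the fold when it reached 20 CPM (UMIs of the gene per 1000000 UMIs of that lineage and library) in at least 1 library, its CPM + 1 differed by 1.5-fold or more, and the Poisson intervals did not overlap.

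Library 2 held 11945 cells and 185474400 UMIs, and library 1 held 12337 cells and 203459556 UMIs, with medians of 10756 and 11695 UMIs a cell. The libraries shared 225 cell barcodes. After filtering and doublet removal, 10781 cells of library 2 and 11114 cells of library 1 were kept. Cells were assigned to lineages by marker gates that contain none of the 9 genes. The gates held 7509 and 8583 epithelial cells in libraries 2 and 1, 685 and 684 macrophages, 635 and 471 fibroblasts, 223 and 70 T cells, 82 and 83 blood endothelial cells, and 63 and 59 pericytes. The neutrophil gate held 42 and 24 cells, under the minimum of 50, so neutrophils are described from a cluster of 165 and 148 cells led by S100a8 and S100a9. That use of the cluster was chosen after the gate counts were seen.

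The markers of each gate were compared with the other cells. The same markers define the gates, so enrichment was largely built in and is no independent check of the names. The macrophage, T cell, blood endothelial and pericyte gates had every probed marker at least 2-fold above the other cells in both libraries. The fibroblast gate had 10 of 10 markers 2-fold above in library 2 and 9 of 10 in library 1. In the epithelial gate all 9 markers reached 20 CPM, but none stood 2-fold above the other cells (summed markers 6544 against 6658 CPM in library 2, and 6545 against 6291 CPM in library 1). The cells passing the monocyte-marker gate, 672 in library 2 and 449 in library 1, did not look like monocytes. Their median depth was 25822 and 26631 UMIs, the leukocyte gene Ptprc stood at 6.57 and 6.64 CPM, and 938 of these cells lay in unnamed clusters. They are called by their gate and not as monocytes. A cell that passed both the macrophage and the monocyte gate was counted as a macrophage, so the macrophage gate may include monocytes. Epithelial-marker RNA was also present in the other lineages, at 54.2% and 51.4% of the epithelial level in macrophages of libraries 2 and 1 and at 53.3% and 58.4% in fibroblasts.

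Csf1 (macrophage colony-stimulating factor) and Il34 (interleukin-34) bind the same receptor tyrosine kinase, Csf1r, which macrophages need for survival. Csf2 (GM-CSF) acts on granulocyte and macrophage progenitors and on mature myeloid cells, and Csf3 (G-CSF) acts through Csf3r to drive the formation and release of neutrophils. Ccl2 and Ccl7 draw Ccr2-bearing monocytes out of the bone marrow and into inflamed tissue and tumors.

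In GRCm38 (mm10), the GENCODE vM21 annotation places Csf1 on the minus strand of chromosome 3 from 107741048 to 107760469, Il34 on the minus strand of chromosome 8 from 110741829 to 110805924, and Csf2 on the minus strand of chromosome 11 from 54247271 to 54249667. Csf3 lies on the plus strand of chromosome 11 from 98701263 to 98703629. Ccl2 (82035571 to 82037453) and Ccl7 (82045712 to 82047525) are neighbors on the plus strand of chromosome 11, with 8258 bases between them. The receptor genes lie on the plus strand, Csf1r on chromosome 18 from 61100598 to 61132149, Csf3r on chromosome 4 from 126024550 to 126044440, and Ccr2 on chromosome 9 from 124101950 to 124113557. All 9 are protein coding.

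Il34, Csf2 and Csf3 UMIs lay mostly in the epithelial gate, and Csf1r UMIs lay mostly in macrophages. Of Csf1 UMIs, 59.9% and 68.8% lay in the epithelial gate and 19.5% and 12.4% in fibroblasts of libraries 2 and 1. The epithelial gate held 81.4% of Il34 UMIs in library 2 and 85.8% in library 1. The same gate held 81.8% and 87.0% of Csf2 UMIs and 80.5% and 86.9% of Csf3 UMIs in libraries 2 and 1. Its share of all UMIs was 76.9% and 82.7%, so these shares were only a little above what an evenly spread gene would give. The macrophage gate, with 2.30% of all UMIs in library 2 and 2.73% in library 1, held 58.5% and 55.7% of Csf1r UMIs and 46.8% and 37.1% of Ccr2 UMIs. Another 25.7% of Ccr2 UMIs in library 2 and 44.5% in library 1 lay in the far larger epithelial gate.

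**Figure D1:**
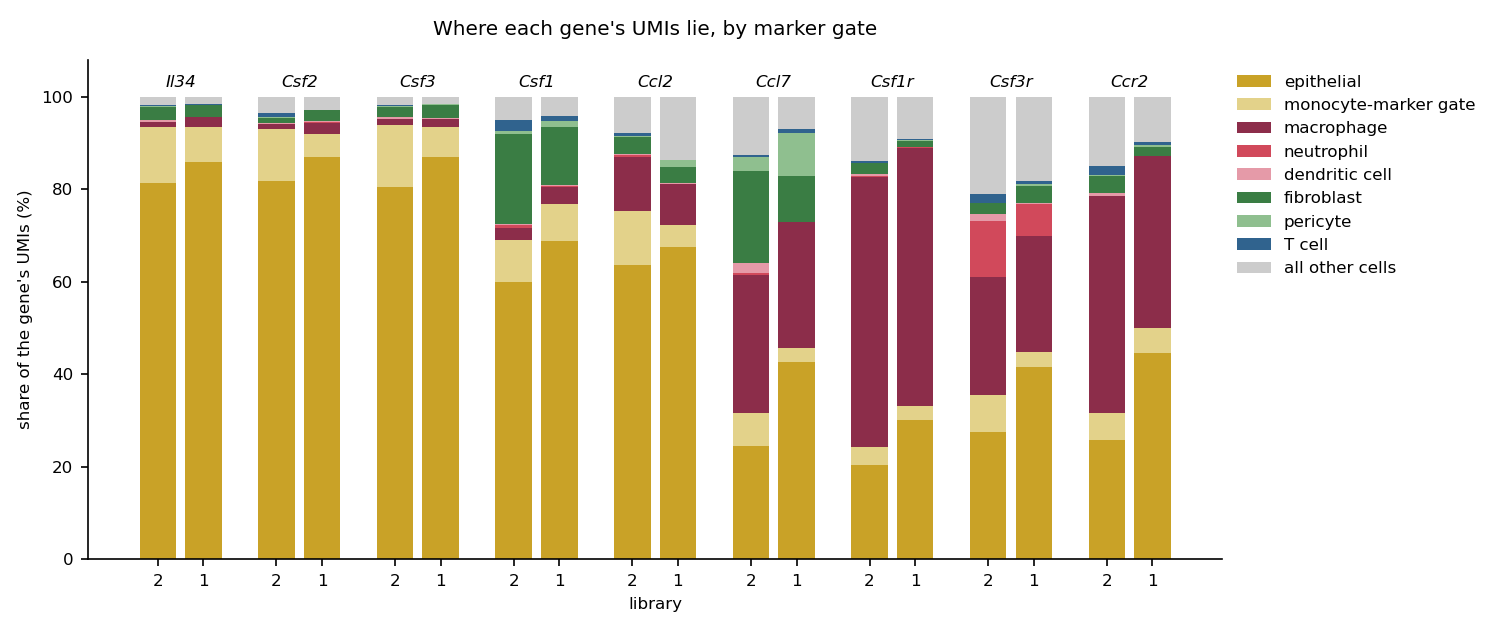
Stacked bars give the share (%) of each gene's UMIs that lies in each marker gate, with library 2 left of library 1 for every gene; gray holds mixed, ungated, endothelial and rarer cells, and the monocyte-marker gate is named by its rule only. Il34, Csf2 and Csf3 bars are over 80% epithelial, and macrophages make up 58.5% and 55.7% of the Csf1r bars of libraries 2 and 1.

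Il34 was detected in most epithelial cells. A UMI of Il34 was present in 73.5% of epithelial-gate cells of library 2 and 76.4% of library 1, at 162 CPM (159.7 to 164.3) and 178.6 CPM (176.4 to 180.9). The libraries' intervals did not overlap, but the ratio of 0.907 was within the 1.5-fold threshold. The neutrophil cluster, where epithelial-marker RNA was at 63.7% and 51.6% of the epithelial level in libraries 2 and 1, had 154.3 CPM in library 2 and 182.7 CPM in library 1, with intervals that overlapped the epithelial ones. Of its cells 34.8% passed the epithelial gate, more than passed any other. Fibroblasts had 125.8 and 154.9 CPM, and blood endothelial cells were lowest at 25.1 and 66.7 CPM in libraries 2 and 1. After each cell was thinned to 1000 UMIs, 14.97% and 17.66% of epithelial cells but only 2.75% and 8.21% of macrophages in libraries 2 and 1 kept an Il34 UMI. In macrophages Il34 was at 80.7 CPM in library 2 and 133.7 CPM in library 1, and it was past the fold with a ratio of 0.604 (0.523 to 0.696). Subtracting the epithelial level in proportion to the epithelial markers left 0 CPM in macrophages of library 2 and 41.0 CPM in library 1. The same subtraction left 38.9 and 49.8 CPM in fibroblasts, 50.2 and 89.9 CPM in the neutrophil cluster, and 0 and 19.2 CPM in blood endothelial cells of libraries 2 and 1.

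Il34 varied among clusters of epithelial cells. It was highest in cluster 4 at 226.2 and 273.2 CPM in libraries 2 and 1 and stood at 208.1 and 263 CPM in cluster 3, whose leading genes include the hypoxia-responsive Adm and Ankrd37. Among the clusters plotted it was lowest in cluster 17, at 66.4 CPM in library 2 and 52.9 CPM in library 1. Cluster 19, whose leading genes include the proliferation genes Mki67 and Top2a, had 90.9 and 91.1 CPM.

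Csf3 was low over the epithelial gate as a whole and high in a few clusters of it. Its level was 28.1 CPM (27.1 to 29.0) in library 2 and 31.9 CPM (31.0 to 32.9) in library 1, with a UMI in 24.4% and 26.4% of cells. The highest level was in cluster 24, led by the secreted protease gene Mmp7, at 165.4 CPM in library 2 and 86.6 CPM in library 1, with 57.1% of cells positive in each. Cluster 2, led by Rgs11 and the claudin gene Cldn6, followed at 74.7 and 79.2 CPM. Csf3 itself was among the 10 leading genes of cluster 2, although it was kept out of the clustering. Cluster 8 was lowest among the clusters plotted, at 9.25 CPM in library 2 and 6.83 CPM in library 1. In cluster 24 Csf3 was past the fold with a ratio of 1.91 (1.55 to 2.35; 1.84 without the 3 highest cells), as were 7.33% of genes tested there, while in cluster 2 the libraries differed by less than 1.5-fold.

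Csf2 followed a different set of epithelial clusters. Over the whole gate it stood at 20.8 CPM in library 2 and 20.2 CPM in library 1, a ratio of 1.03 (0.976 to 1.09). Clusters with much Csf2 included cluster 8, led by Il11 and Insm1, at 20.4 and 53.6 CPM in libraries 2 and 1, cluster 15, led by the amino-acid response genes Aldh1l2, Trib3 and Asns, at 34.6 and 45.0 CPM, and cluster 3 at 34.4 and 43.2 CPM. Cluster 10, led by the heat-shock genes Hspa1a and Hspa1b, had 45.2 CPM in library 2 and 24.7 CPM in library 1. Csf2 was lower in library 2 in cluster 8 (ratio 0.380, 0.318 to 0.455) and in cluster 11 (0.626, 0.512 to 0.768), and higher in library 2 in cluster 10 (1.83, 1.35 to 2.48). The share of all tested genes past the fold was 12.1% in cluster 8, 3.71% in cluster 11 and 4.22% in cluster 10. In cluster 11, 3 cells carried 50.5% of Csf2 UMIs in library 2 and 68.2% in library 1, and without them the levels were 9.64 and 10.0 CPM. In cluster 10, where 3 cells carried 36.7% and 17.8%, the ratio without them was 1.43 (29.2 CPM in library 2 and 20.4 CPM in library 1), under the fold. Cluster 8 was past the fold without its 3 highest cells, at 16.6 CPM in library 2 and 39.8 CPM in library 1. In the T cell gate Csf2 had 27 UMIs (38.7 CPM) in library 2 and 3 UMIs (10.6 CPM) in library 1, with overlapping intervals, and 70.4% of the 27 UMIs came from 3 cells.

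None of the 3 members that reached 20 CPM in the epithelial gate was past the fold, against 2.69% of 8516 genes tested. The median log2 ratio of those members was -0.14, and that of all tested genes was 0.0038.

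**Figure D2:**
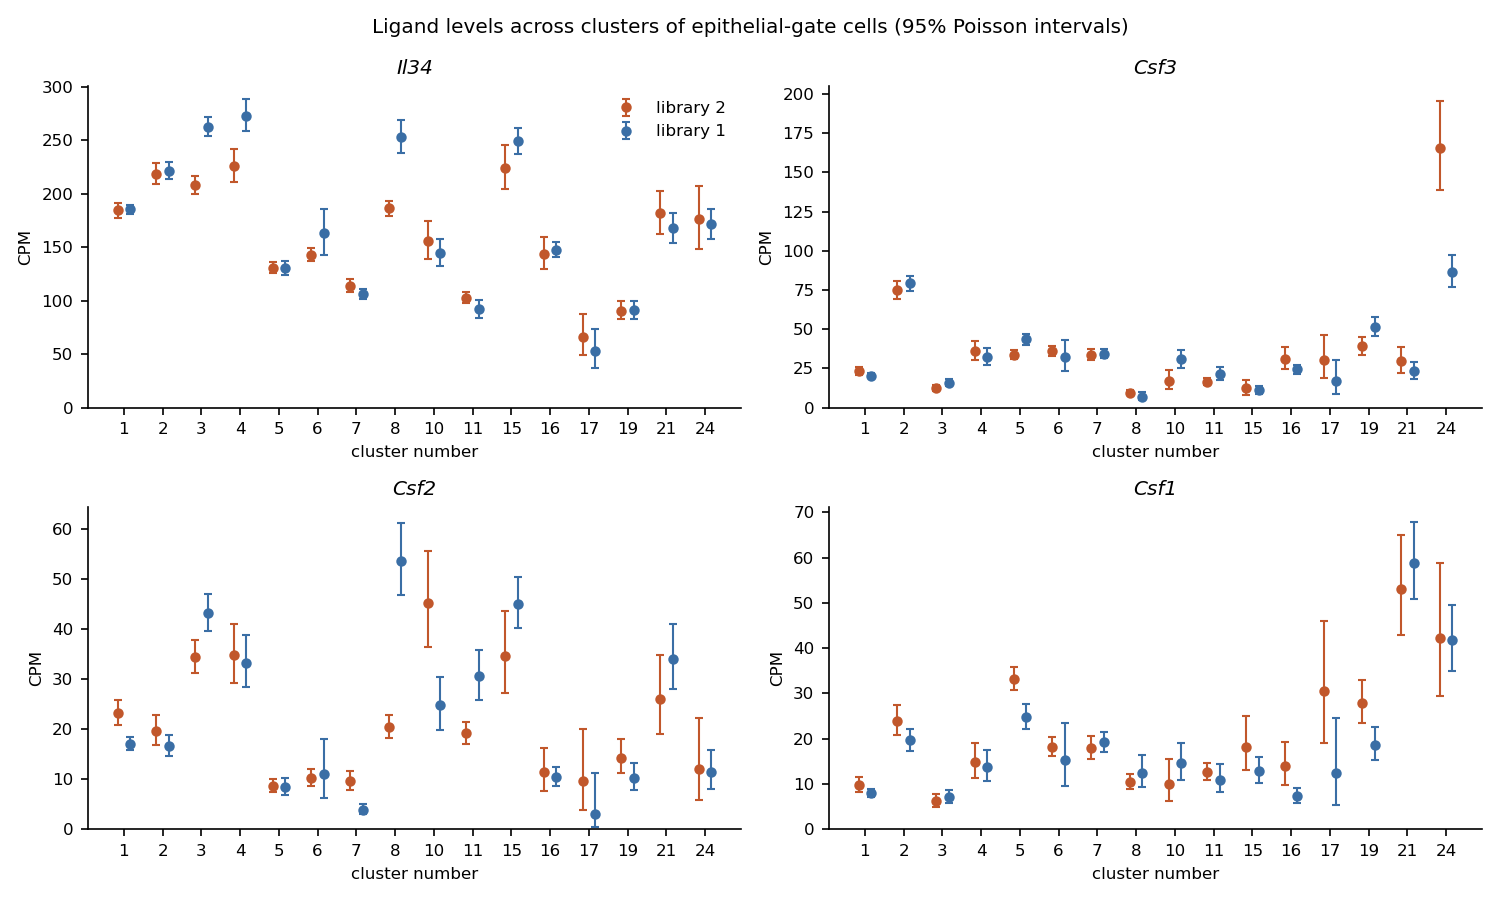
CPM of Il34, Csf3, Csf2 and Csf1 with 95% Poisson intervals in the clusters that consist mainly of epithelial-gate cells and have 50 or more cells in each library, library 2 left of library 1. Csf3 peaks in cluster 24 (165.4 and 86.6 CPM in libraries 2 and 1) and cluster 2, and Csf2 is highest in cluster 10 in library 2 (45.2 CPM) and in cluster 8 in library 1 (53.6 CPM).

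Csf1 had its highest levels outside the epithelial cells. Fibroblasts held 125.3 CPM (115.9 to 135.2) in library 2 and 79.4 CPM (71.4 to 88.0) in library 1, T cells 110.5 and 113.2 CPM, and the neutrophil cluster 158.2 and 107.2 CPM. Epithelial cells were at 16.9 and 14.4 CPM, but as the most abundant cells they still carried 59.9% of Csf1 UMIs in library 2 and 68.8% in library 1. In library 2 the neutrophil cluster, fibroblasts and T cells had overlapping intervals with their neighbors in the order of levels. The same held in library 1 for T cells, the neutrophil cluster, pericytes and fibroblasts. Among epithelial clusters Csf1 was highest in cluster 21, led by the interferon-induced genes Ifit3, Rsad2 and Isg15, at 53.2 CPM in library 2 and 58.9 CPM in library 1.

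In fibroblasts Csf1 was past the fold, with a ratio of 1.58 (1.39 to 1.80), while 33.4% of cells in library 2 and 35.0% in library 1 had a UMI. The ratio, taken without the other parts of the call rule, was 1.5-fold or more in 10 of 19 alternative settings. It was under the fold when each cell was thinned to 1000 UMIs (log2 ratio 0.12), when cells were weighted equally (0.21), or in the 2 fibroblast clusters together (190.1 and 137.9 CPM, ratio 1.38, 1.21 to 1.58). Of those, cluster 12, led by Cxcl14 and Thbs4, had 223.5 CPM of Csf1 in library 2 and 140 CPM in library 1, past the fold as were 6.18% of genes tested there. Without the 3 cells with most Csf1 UMIs in each library the levels were 182.5 and 129.3 CPM, and the ratio of 1.41 was under the fold. Csf3r was lower in library 2 in cluster 12, at 10.5 CPM from 20 UMIs against 22.6 CPM from 53 UMIs in library 1, and without the 3 highest cells it was below 20 CPM in both libraries. Cluster 26, led by the elastin gene Eln and the acute-phase gene Saa3, had 145 CPM in 143 cells of library 2 and 116 CPM in 29 cells of library 1. Only 64.9% of fibroblast-gate cells lay in clusters named fibroblast.

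Of the 4 members at 20 CPM in the fibroblast gate, Csf1 and Csf1r were higher in library 2 and Csf3 was lower, against 5.98% of all tested genes past the fold in either direction and 3.25% higher in library 2. Csf1r in fibroblasts stood at 27.8 CPM in library 2 and 17.5 CPM in library 1. Without the 3 cells with most Csf1r UMIs in each library its log2 ratio was 0.15, and it was -0.13 in cells that gate and cluster both called fibroblast. With clusters 12 and 26 summed, no member was past the fold, where 7.89% of all tested genes were.

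**Figure D3:**
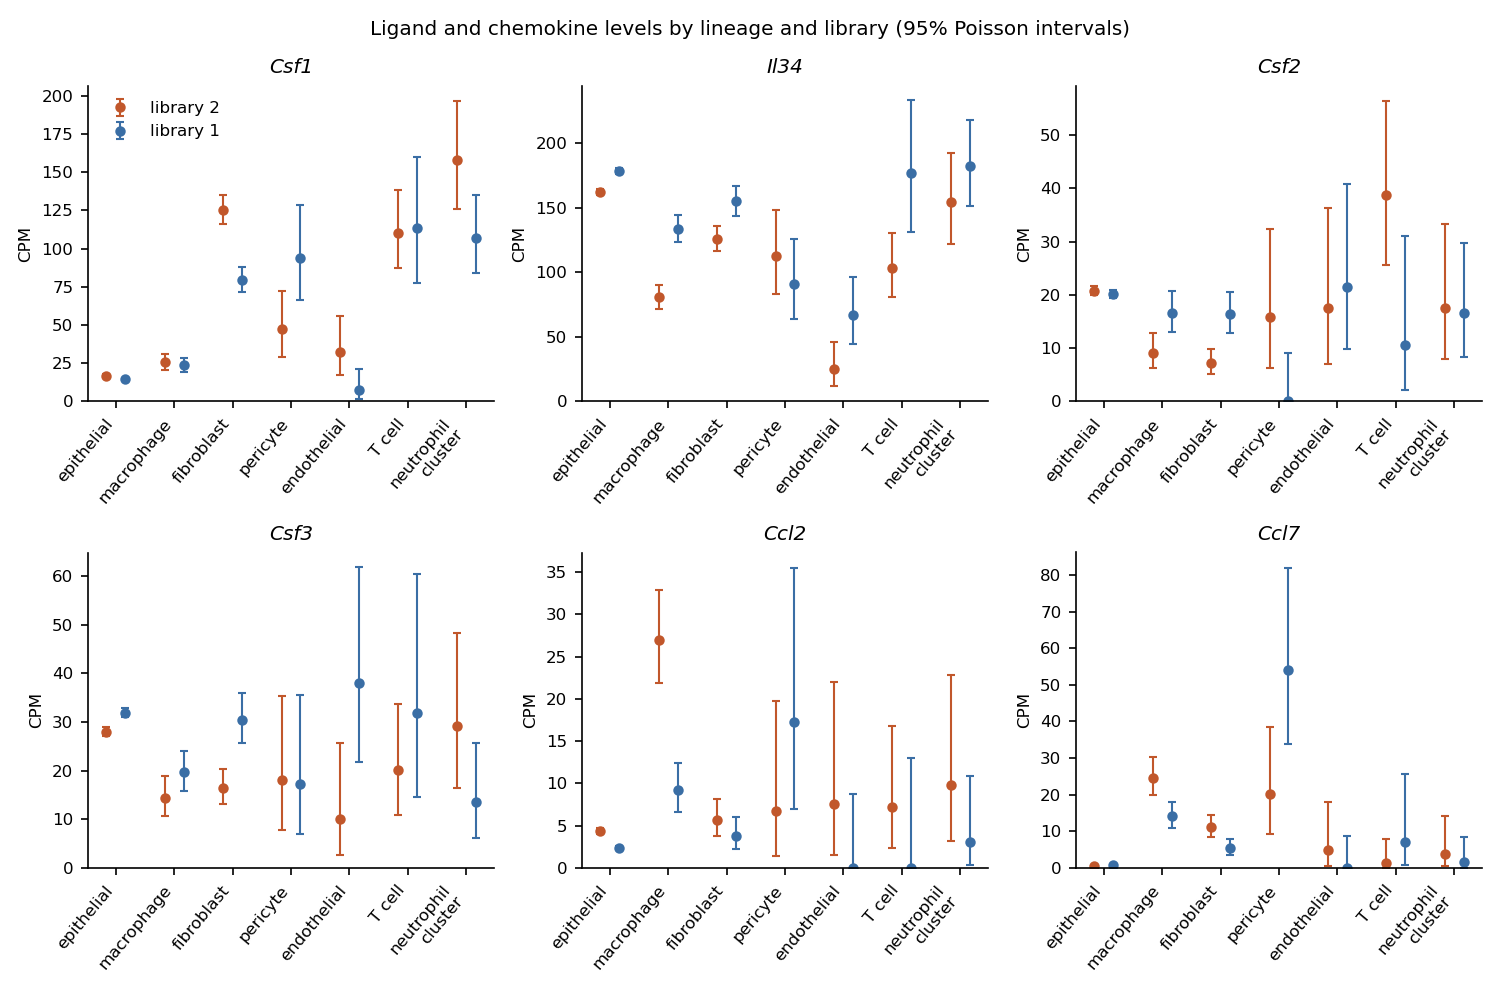
CPM of the 6 ligands with 95% Poisson intervals in 6 marker gates and the neutrophil cluster, library 2 left of library 1. Csf1 is lowest in epithelial and blood endothelial cells and macrophages, Il34 is shown before tumor-cell RNA is subtracted (fibroblasts have 38.9 and 49.8 CPM in libraries 2 and 1 after it), and Ccl2 and Ccl7 are under 5 CPM in the epithelial gate.

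Both chemokines were scarce. Among the lineages plotted, Ccl2 was highest in macrophages of library 2 and pericytes of library 1, but in each library this interval overlapped that of the next lineage. The pericyte level in library 1 was 17.2 CPM (6.93 to 35.5), from 7 UMIs in 5 cells. Cells of mixed or no gate had Ccl2 at similar levels, 14.8 and 31.7 CPM in library 2 and 19.1 and 15.3 CPM in library 1. Ccl2 stood at 26.9 CPM (97 UMIs in 42 cells) in macrophages of library 2 and at 9.16 CPM (42 UMIs in 30 cells) in those of library 1. Its epithelial level was 4.36 CPM in library 2 and 2.33 CPM in library 1, yet the epithelial gate carried 63.6% and 67.4% of Ccl2 UMIs because of its size. In cluster 21, the interferon-gene cluster of epithelial cells, Ccl2 was at 37.3 and 10.6 CPM, past the fold as were 7.45% of genes tested there, and 77.3% and 47.1% of its UMIs came from 3 cells of each library. Without them Ccl2 was at 8.66 CPM in library 2 and 5.70 CPM in library 1.

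Ccl7 stood at 24.7 CPM (89 UMIs) in macrophages of library 2 and at 14.2 CPM (65 UMIs) in those of library 1. Pericytes had 20.3 CPM from 9 UMIs and 54.2 CPM from 22 UMIs in libraries 2 and 1, with overlapping intervals, and epithelial cells had 0.606 and 0.736 CPM. Fibroblasts were at 11.2 CPM in library 2 and 5.31 CPM in library 1. Within macrophages, 16 of the 42 cells with a Ccl2 UMI in library 2 also had a Ccl7 UMI (38.1%), against 27 of the 643 cells without Ccl2 (4.199%). In library 1 the counts were 10 of 30 (33.3%) and 33 of 654 (5.05%). Cells with Ccl2 were also deeper, with medians of 4584 against 3236 UMIs in library 2 and 7322 against 3600 UMIs in library 1, and the part of depth in this was not tested.

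Csf1r marked the macrophages. A UMI was found in 81.2% of macrophage-gate cells of library 2 and 83.2% of library 1, at median depths of 3339 and 3629 UMIs. Epithelial cells should lack the gene, but the epithelial gate had a UMI in 12.9% and 14.0% of cells at median depths of 12313 and 12415 UMIs. Of the cells in that gate, 129 lay in the macrophage clusters and 109 in the neutrophil cluster, and their part in these values was not tested. After thinning to 1000 UMIs the shares were 62.5% and 57.3% in macrophages and 1.29% and 1.16% in epithelial cells. The level was 968.5 CPM in macrophages of library 2 and 680.6 CPM in those of library 1. The neutrophil cluster followed at 107.4 and 52.9 CPM and no other lineage plotted reached 36 CPM.

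Within macrophages Csf1r was higher in cluster 9 than in cluster 13 in each library. Cluster 9, led by Apoe, C1qa and Mmp12, had 1540 CPM in library 2 and 1386 CPM in library 1, and cluster 13, led by the protease genes Mmp9 and Ctsk, had 408.9 and 252 CPM. Epithelial-marker RNA was at 27.03% and 32.03% of the epithelial level in cluster 9 and at 46.5% and 53.4% in cluster 13 in libraries 2 and 1, and its part in the difference was not tested. Csf1r was left out of the clustering but is among the 10 leading genes of cluster 9, so this contrast is a description. The median depth of cluster 9 was 3216 UMIs in library 2 and 2816 UMIs in library 1, and that of cluster 13 was 1342 and 5489 UMIs.

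Among the lineages plotted, Csf3r was highest in the neutrophil cluster, at 1344 CPM in library 2 and 1068 CPM in library 1. A UMI was present in 77.0% and 90.5% of its cells at median depths of 1111 and 1310 UMIs. The cluster held 35.95% and 32.05% of Csf3r UMIs in libraries 2 and 1. The far larger epithelial gate, which shares some of these cells, held 27.4% and 41.4%. Csf3r was also among the leading genes of the neutrophil cluster although it was left out of the clustering. Macrophages were next, at 135.9 and 119.9 CPM with a UMI in 41.9% and 42.0% of cells, and cluster 9 held more (210.7 and 228.7 CPM) than cluster 13 (55.5 and 61.9 CPM). In the epithelial gate the level was 4.35 CPM in library 2 and 6.59 CPM in library 1. Weighting neutrophil-cluster cells equally gave 3600 CPM in library 2 and 3803 CPM in library 1, with the libraries in the other order.

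In the neutrophil cluster Csf1r was the only one of 5 members at 20 CPM that was past the fold, with a ratio of 2.03 (1.31 to 3.20) from 55 UMIs in library 2 and 35 UMIs in library 1, against 6.22% of all tested genes. Equal weighting of cells turned it to a log2 ratio of -0.044. Csf3r itself had a ratio of 1.26 (1.13 to 1.40).

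Ccr2 had its highest level in macrophages, and that level was higher in library 2. Its level was 63.8 CPM (55.8 to 72.6) from 230 UMIs in macrophages of library 2 and 20.7 CPM (16.8 to 25.3) from 95 UMIs in those of library 1. A UMI was present in 17.1% of macrophages (14.3 to 20.1) in library 2 and 7.75% (5.86 to 10.0) in library 1. Epithelial cells, although deeper, had a UMI in 1.60% and 1.27% of cells, and thinned shares were 8.41% and 3.70% in macrophages against 0.162% and 0.0822% in epithelial cells. T cells followed at 12.9 CPM from 9 UMIs in library 2 and 7.08 CPM from 2 UMIs in library 1, and epithelial cells were at 1.04 and 0.822 CPM. In library 1 the T cell interval (0.857 to 25.6) overlapped that of macrophages. The neutrophil cluster had 2 Ccr2 UMIs (3.91 CPM) in library 2 and none in library 1, which allows up to 4.53 CPM. The dendritic cell clusters had 5 UMIs (4.83 CPM) in 183 cells of library 2 and 2 UMIs (5.79 CPM) in 45 cells of library 1. Cells that passed both the macrophage and the monocyte gate are among the macrophages here and were not counted apart.

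**Figure D4:**
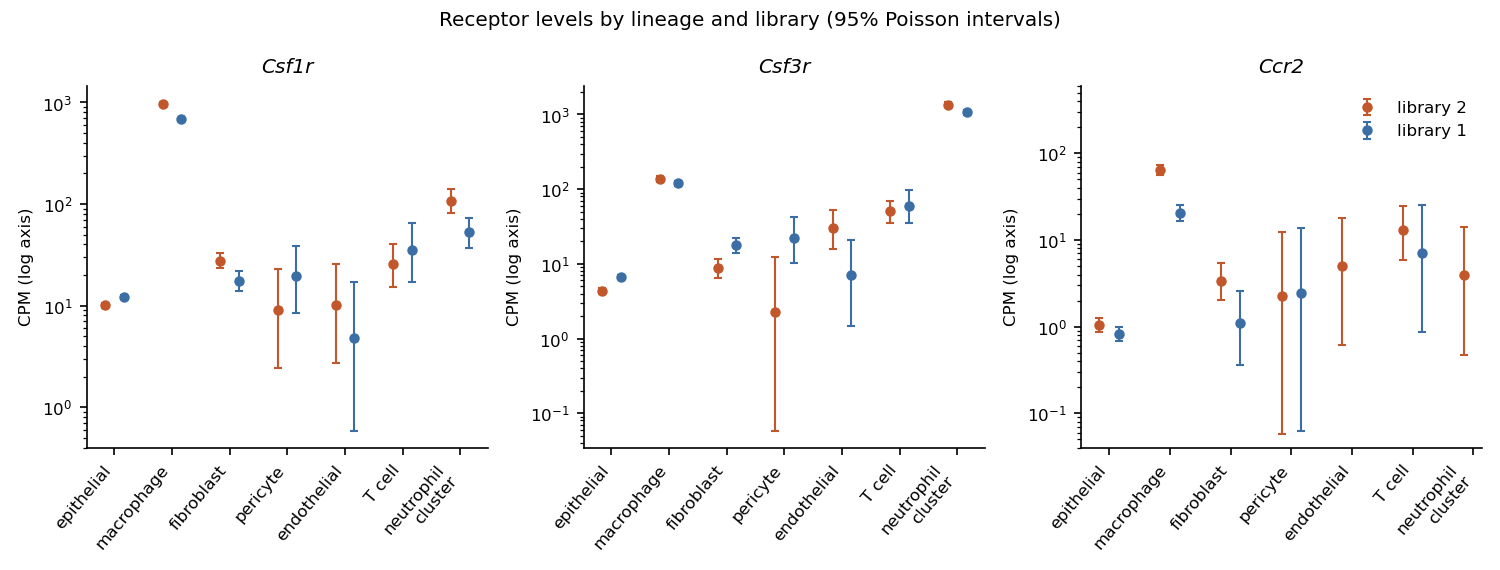
CPM of the 3 receptors on log axes with 95% Poisson intervals, library 2 left of library 1; lineages with no UMI have no point. Csf1r and Ccr2 are highest in macrophages (968.5 and 680.6 CPM, and 63.8 and 20.7 CPM, in libraries 2 and 1) and Csf3r is highest in the neutrophil cluster. For Ccr2 in library 1 the intervals of macrophages and T cells overlap.

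In the macrophage gate, 3 of the 7 members at 20 CPM were past the fold and higher in library 2 (Ccr2, Ccl2 and Ccl7), and Il34 was past it and lower. The share of all 8985 tested genes past the fold was 7.97% in either direction and 3.65% higher in library 2. The median log2 ratio was 0.51 over the 7 members and -0.045 over all tested genes. Ccr2 had a ratio of 3.08 (2.42 to 3.95), Ccl2 2.94 (2.03 to 4.33), and Ccl7 1.74 (1.25 to 2.44). Csf1r had a ratio of 1.42 (1.36 to 1.49), under the threshold, with intervals apart. Csf3r had 1.13 (1.001 to 1.28) and Csf1 1.07 (0.805 to 1.43), both with overlapping intervals. The 10 macrophage markers together were also higher in library 2, at 7458 against 5586 CPM, and their part in these ratios was not tested.

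The Ccr2 difference was present in both macrophage clusters, at 109.4 and 54.0 CPM in libraries 2 and 1 for cluster 9 (ratio 2.03, 1.60 to 2.58) and at 30.0 and 5.60 CPM for cluster 13 (5.36, 3.03 to 9.83). Its size was 1.5-fold or more under all 19 alternative settings, with log2 ratios between 0.74 and 1.77. That count rests on the ratio alone, without the other parts of the call rule. The lowest recomputed Ccr2 level in macrophages of library 2 was 18.1 CPM, below the 20 CPM minimum. Ccl2 was at 34.7 and 18.2 CPM in cluster 9 and 20.8 and 6.48 CPM in cluster 13 of libraries 2 and 1, past the fold in each. In cells thinned to 1000 UMIs the Ccl2 ratio was under the threshold (32.4 and 22.5 CPM, log2 ratio 0.50), and so was that of Ccl7 (37.2 and 25.8 CPM, 0.51). Ccl7 differed past the fold in cluster 13 but not in cluster 9, where it stood at 33.3 and 27.3 CPM. Of all tested genes, 5.63% were past the fold in cluster 9 and 7.73% in cluster 13. Without the 3 highest cells, Ccr2 was past the fold in clusters 9 and 13 and Ccl2 in cluster 9. In cluster 13 Ccl2 (12.7 and 4.18 CPM) and Ccl7 (10.2 and 5.37 CPM in libraries 2 and 1) were then below the 20 CPM minimum. The part of the depth gap of cluster 13 in its ratios was not tested.

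Taking the 2 macrophage clusters together moved Csf1r over the threshold, at 1126 CPM in library 2 and 655.1 CPM in library 1 (ratio 1.72, 1.64 to 1.80), and 17.3% of all tested genes were then past the fold. The make-up of these cells differed, since cluster 9 gave 518 of 788 cells in library 2 and 427 of 792 cells in library 1. In cluster 9 alone the Csf1r ratio was 1.11 (1.06 to 1.17) and in cluster 13 it was 1.62 (1.45 to 1.81), or 1.48 without the 3 highest cells.

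**Figure D5:**
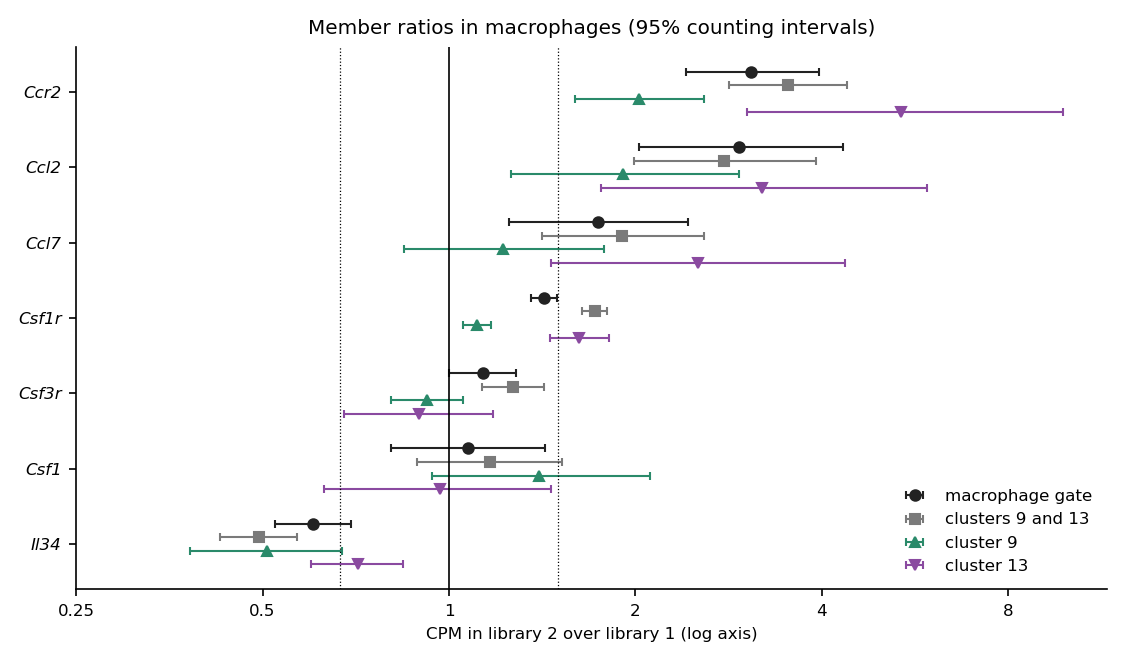
Ratio of CPM in library 2 over library 1 (log axis) with 95% counting intervals for 7 members in the macrophage gate, in clusters 9 and 13 together, and in each cluster; dotted lines mark 1.5-fold. All 4 points of Ccr2 lie above 1.5, those of Il34 lie below 1, and Csf1r lies between 1.11 and 1.72.

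Cells of the macrophage gate with a Ccr2 UMI were compared with those without. In library 2 the 117 cells with Ccr2 had Csf1r at 1192 CPM (1111 to 1278), against 917.1 CPM in the 568 cells without it. In library 1 the values were 1102 CPM (999.2 to 1213) in 53 cells with Ccr2 and 642.4 CPM in 631 cells without. The 10 monocyte markers summed to 706.7 and 679.3 CPM in cells with and without Ccr2 of library 2, and to 608.8 and 626.2 CPM in those of library 1, with overlapping intervals in each library. Dendritic cell markers were higher beside Ccr2, at 329.6 against 207.8 CPM in library 2 and 241.4 against 152 CPM in library 1. Macrophage markers stood at 8172 CPM in cells with Ccr2 and 7294 CPM in cells without it in library 2, and at 8738 and 5300 CPM in library 1. Cells with Ccr2 were deeper, with medians of 4378 against 3198 UMIs in library 2 and 4840 against 3615 UMIs in library 1, so a UMI was easier to find in them.

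Among the other members of these receptor and ligand families, 15 of 27 probed genes reached 20 CPM in macrophages, 5 were past the fold and higher in library 2 and 1 was lower, against 7.97% of all tested genes in either direction and 3.65% higher. Csf2ra, the alpha chain of the GM-CSF receptor, was at 881.1 CPM in library 2 and 540.6 CPM in library 1 and past the fold. The chemokine genes Ccl6 (156.2 and 70.0 CPM), Ccl8 (100.2 and 56.1 CPM), Ccl9 (100.2 and 62.2 CPM) and Ccl3 (21.1 and 11.8 CPM) were also higher in library 2. Sdc1, a syndecan that epithelial cells carry and that can bind interleukin-34, was the only gene lower, at 635 CPM in library 2 and 1007 CPM in library 1. The shared beta chain Csf2rb (185.9 and 138.5 CPM) and the chemokine receptor Ccr1 (99.6 and 66.1 CPM, at the edge of the threshold) were not past the fold. The median log2 ratio of the 15 genes was 0.36.

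Of 18 transducers and transcription factors downstream of the receptors, 17 reached 20 CPM in macrophages, 3 were past the fold and higher in library 2, and none was lower, against the same 7.97% and 3.65% of all tested genes. The adaptor gene Tyrobp stood at 791.8 CPM in library 2 and 449.2 CPM in library 1. Spi1, which encodes the myeloid factor PU.1, was at 140.9 and 92.9 CPM, and Mitf at 31.6 and 18.5 CPM. Cebpa, Cebpb and Irf8, other myeloid factors, had ratios of 1.35, 1.38 and 1.33, and Socs3, a feedback inhibitor of cytokine signaling, had 1.01. The median log2 ratio of the 17 genes was 0.31.

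In the T cell gate 6 members reached 20 CPM and Il34 was past the fold, at 103.3 CPM in library 2 and 176.9 CPM in library 1, against 4.08% of tested genes. After thinning, its log2 ratio in T cells was 0.10. None of 4 members in pericytes or 5 in blood endothelial cells was past the fold, against 4.82% and 4.93% of tested genes. These gates hold few UMIs of the members. Csf1 had 21 and 38 UMIs in pericytes of libraries 2 and 1 and 13 and 3 in endothelial cells. Even large differences could go uncalled at this depth. Csf1 in endothelial cells stood at 32.6 and 7.15 CPM and Csf3r in pericytes at 2.25 and 22.2 CPM in libraries 2 and 1, with overlapping intervals.

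The genes most like each receptor across lineages were sought among 8272 genes over 14 points. The points were the 7 gates of sufficient size in each library, and points of a library share their depth and tumor RNA. Among the 7 was the monocyte-marker gate, with epithelial markers at 130.3% and 140.5% of the epithelial level in libraries 2 and 1. That gate and the epithelial gate thus both gave points rich in epithelial-marker RNA. The 3 closest to Csf1r by Pearson correlation of log2(CPM + 1) were Lyz1 (0.989), Cd68 (0.988) and Apoe (0.983), genes that macrophages are known to carry. Plcb2 (0.969), Plbd1 (0.962) and Plcg2 (0.959) were closest to Ccr2, and Dennd4b (0.960), Il1b (0.957) and Rab44 (0.949) to Csf3r, although the neutrophil cluster was not among the points. For the ligands the closest genes were Zfp618 (0.957), Inava (0.953) and Pard3 (0.949) for Il34, Adamts6 (0.947), Fam214a (0.901) and Ptger2 (0.899) for Csf1, and Arhgap24 (0.947), Nab2 (0.919) and Slc8a1 (0.911) for Ccl7. The closest genes were Nufip2 (0.919), Kpna1 (0.912) and Slc9a5 (0.911) for Csf2, Tmem106b (0.891), Mical3 (0.875) and Golga2 (0.859) for Csf3, and Orai3 (0.883), Pold4 (0.859) and Tbc1d10a (0.850) for Ccl2. A minimum of 50 CPM applied to the compared genes and not to the members. In library 1 Csf2 had 0 UMIs in pericytes and 3 in T cells, and Ccl2 had 0 in T cells. Ccl2, Ccl7 and Ccr2 had 0 in blood endothelial cells of library 1. The part of such low counts in the correlations was not tested.

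Csf2 and Csf3 also differed between the libraries in clusters named for other lineages. In the blood endothelial cluster 23, Csf2 was at 47.4 CPM in library 2 and 14.7 CPM in library 1 and Csf3 at 7.68 and 32.5 CPM, and 5.55% of genes tested there were past the fold. Without the 3 highest cells Csf2 in cluster 23 was at 8.27 CPM in library 2 and 5.79 CPM in library 1, and Csf3 at 2.80 and 17.9 CPM. Cluster 23 also held 99 mixed and 16 epithelial-gate cells. In the blood endothelial gate Csf2 was at 17.6 CPM (7 UMIs) in library 2 and 21.5 CPM (9 UMIs) in library 1. Csf3 there was at 10.0 and 38.1 CPM in libraries 2 and 1, and the intervals of both genes overlapped. In cluster 18, named T cell, Csf2 was past the fold at 49.6 and 22.7 CPM in libraries 2 and 1, as were 7.43% of genes tested. It had 81 and 23 Csf2 UMIs, where the whole T cell gate had 27 and 3. Besides T cell-gate cells, cluster 18 held 73 mixed, 58 epithelial-gate and 22 ungated cells. Its epithelial-marker RNA was at 61.2% and 70.4% of the epithelial level, so the difference is not assigned to T cells. In the pericyte cluster 28, where 2.76% of genes tested were past the fold, Csf1r had 2 UMIs in library 2 and 15 UMIs in library 1.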

How the data were processed

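The deposited matrix holds unnormalized UMI counts for the cells of both libraries. The authors used Cell Ranger 8.0.0 and mm10, per the submitters' processing notes. Probe-based counting reads only the probed stretch of a transcript, and the number of probe pairs a gene has was not given in the sources used here, so levels are compared between cells and libraries and not between genes. Intervals and floors cover counting error only, since UMIs of 1 pool of tumors are not independent animals.

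Cells needed 200 genes, 500 UMIs and under 20% mitochondrial UMIs, and 23 cells failed in library 2 and 5 in library 1. Scrublet's automatic threshold marked 2080 and 0 cells, so top-scoring cells were dropped instead, at 0.8% per 1000 cells (1141 and 1218 cells). A cell joined a lineage with 3 or more markers detected and 10 or more marker UMIs per 10000. Macrophage took precedence over monocyte, T cell over NK cell, pericyte over fibroblast and lymphatic over blood endothelial. Cells that otherwise passed several gates other than epithelial were called mixed. The epithelial gate applied to cells that passed no other gate, and the rest were ungated. Leiden clusters (31, resolution 1, 3000 variable genes, 50 components, 15 neighbors) were built without the 9 genes and named from the same markers. UMIs were summed per gate and library and divided by all UMIs there (CPM). Poisson, Clopper-Pearson and conditional binomial intervals are exact at 95%. A count of 0 allows 3 counts. Scanpy 1.11.5 with leidenalg 0.10.2, scipy 1.17.1 and edgeR 4.0.16 were used, and the call rule was tested on simulated data. Genes named beyond the 9 are those of the fixed lists at 20 CPM and the 3 most correlated genes of each member. Gate markers, Ptprc and some of the leading genes of clusters are named too, and those leading genes were picked without a fixed rule.

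The members and lists, and the gene and lineage pairs treated as main results, were chosen with earlier results of these data known. The alternative settings cover scaling (TMM in edgeR, median of ratios), the value added before the log, thinning, the gate, doublets, clusters and subtraction of tumor-cell RNA. The use of clusters for neutrophils, subtraction with rescaling, cells on which gate and cluster agree, and cluster ratios without the 3 highest cells were added after seeing the data. Cx3cr1 of the family list and the markers Stfa2l1, Mrgpra2b and Trpc6 were not analysed here.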

Additional observations from a re-analysis of the deposited data

Results flagged for a closer look

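Some members differed between the libraries in opposite directions in different clusters. These differences between clusters were not tested, since each cluster had 1 library of each kind, and all values are log2 ratios of library 2 over library 1.

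For Csf2, the ratio was 1.62 in cluster 23 (named blood endothelial), 1.09 in cluster 18 (named T cell) and 0.84 in cluster 10 (epithelial, heat-shock genes). Clusters 23 and 18 also held cells of other gates. In the blood endothelial and T cell gates the Csf2 ratios were -0.27 and 1.77, with overlapping intervals in each. The cluster ratio was -2.18 in cluster 13 (macrophages), -1.35 in cluster 8 and -0.65 in cluster 11 (both epithelial). In cluster 11 without the 3 highest cells of each library it was -0.052, where those cells held 50.5% of the UMIs of library 2 and 68.2% of library 1, and in cluster 10 it was 0.50. Cluster 13 then had 2 Csf2 UMIs in library 2 and 51 in library 1, below 20 CPM in both. In cluster 23, 83.8% of the 37 Csf2 UMIs of library 2 and 63.2% of the 19 UMIs of library 1 came from 3 cells each, and the ratio without them was 0.45. In clusters 8 and 18 Csf2 was past the fold without them.

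Csf3 had ratios of 0.93 in cluster 24, -0.81 in cluster 10 and -1.95 in cluster 23. Without the 3 highest cells these were 0.87, -0.79 and -2.31, and only cluster 24 was past the fold with 20 CPM or more and intervals apart.

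Csf1r had ratios of 0.70 in cluster 13 and 1.01 in cluster 22 (the neutrophil cluster), and -2.85 in cluster 28 (pericytes), where it rested on 2 UMIs in library 2 and 15 in library 1. Without the 3 highest cells, cluster 22 was past the fold and cluster 13, at 0.56, was not.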

How the results depend on the processing

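No paired analysis was possible because each library number stands for 1 library and no label pairs cells or tumors. Of 605 recomputed values of 34 log2 ratios (library 2 over library 1), 558 kept the sign of the first value, and 246 of 458 recomputed levels and shares stayed within the counting interval. In macrophages the Csf1r ratio of 0.51 became 0.24 with cells weighted equally, 0.19 with thinned cells, 0.30 without doublet removal, 0.39 with a gate of 2 markers, 0.39 with 20 marker UMIs per 10000, -0.25 with 5 per 10000, 0.78 in clusters, 0.60 with tumor-cell RNA subtracted and rescaled, and 0.66 where gate and cluster agree. The last 2 were chosen after seeing the data. Ccl2 (1.46) became 0.95 with 10 CPM added, 0.82 with equal weights, 0.50 thinned, 0.57 at 5 per 10000 and 0.98 at 20 per 10000. The gate at 5 per 10000 also gave -0.33 for Ccl7 (0.76), -0.59 for Csf3r (0.18) and 0.74 for Ccr2 (1.58), and Ccr2 was 1.26 with 10 CPM added and 1.15 without doublet removal. Csf1 in fibroblasts (0.65) was 0.21 with equal weights, 0.12 thinned and 0.46 in clusters, and Csf1r there was -0.13 where gate and cluster agree. In epithelial cells Csf2 (0.04) was 0.13 thinned and 0.72 in named epithelial clusters, Csf3 (-0.18) was -0.043 with equal weights, -0.047 thinned and -0.11 at 5 per 10000, and Il34 (-0.14) was -0.17 with equal weights, -0.26 thinned and -0.0016 in named clusters. Il34 in T cells was 0.10 thinned. Of 21 called ratios of members in single clusters, all kept their sign with the 3 top cells left out, and 8 stayed past the fold, an alternative chosen after seeing the data. In the neutrophil cluster Csf3r (0.33) was -0.079 with equal weights, 0.69 in the marker gate and 0.76 after subtraction and rescaling, and Csf1r was -0.044 with equal weights. Genes past the fold in macrophages numbered 716, and 420 with 10 CPM added, 287 without doublet removal, 1566 in clusters and 1234 where gate and cluster agree. Those in fibroblasts numbered 530, and 331 with 10 CPM added and 885 with no filter on low genes, where epithelial cells had 229, 141 and 613. The causes were not tested. With 1 library of each kind, the spread between tumors is unknown.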

Other observations

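Csf2ra, the alpha chain of the GM-CSF receptor, differed between the libraries in many clusters, most of them epithelial. By gate it was past the fold in macrophages and blood endothelial cells, and not in epithelial cells, T cells, fibroblasts or pericytes. It was also past the fold in mixed and ungated cells and in the monocyte-marker gate. It reached 20 CPM in 23 clusters, its log2 ratio of library 2 over library 1 was above 0 in 21 of them with a median of 0.67, and it was past the fold and higher in library 2 in 13. Among these, clusters 10, 11, 13, 18, 21, 22 and 23 had between 3.71% and 7.73% of all tested genes past the fold in either direction. The shares for the others, clusters 1, 3, 4, 5, 15 and 16, are not given here. Csf2ra was lower in library 2 in the pericyte cluster 28, where 2.76% of tested genes were past the fold. Csf2rb, the shared beta chain, reached 20 CPM in 6 clusters and was past the fold in 1.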
